A study of Mus musculus with 15 samples.

Results

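The nuclear genes for subunits of respiratory chain complexes I to IV were followed in 4T1, a mouse mammary carcinoma cell line, in 5 populations. The 56 genes were taken from a list of subunits matched by mouse symbol to gene identifiers, out of 27179 identifiers counted. They comprised 33 genes of complex I, 4 of complex II, 9 of complex III and 10 of complex IV, with Ndufa4 placed in complex IV, where its protein is now assigned. In the fits, 54 of the 56 passed the filter on low counts, and Sdhd and Uqcr11 did not.

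The respiratory chain of the inner mitochondrial membrane passes electrons from NADH and succinate to oxygen and pumps protons, and ATP synthase uses the resulting gradient. Complex I oxidizes NADH, complex II is succinate dehydrogenase of the tricarboxylic acid cycle, complex III passes electrons from ubiquinol to cytochrome c, and complex IV is cytochrome c oxidase. Complexes I, III and IV are built from products of both genomes, so nuclear-encoded subunits are imported and joined to mitochondrially encoded ones, and 4T1 tumours are a common model of metastatic breast cancer in which oxidative metabolism has been studied.

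RNA sequencing of total RNA gave 15 libraries, 3 biological replicates of each population. The parental population carried the WT genotype in the labels and was not transfected. E1, E2, A and M were iRFP670 expressing: parental cells were transfected with the pNLS-iRFP670 plasmid, which encodes a near-infrared fluorescent protein, single cells were isolated, and each population was grown from one of them, so each is 1 clone. All populations grew in RPMI-1640 with fetal bovine serum and gentamicin. The clones were also kept in G418, which was left out of the culture before RNA collection, and RNA was taken after 72 h at about 80% confluency. The effects of transfection, G418 and growth from 1 cell cannot be told apart in the comparisons with parental. The labels do not say how the biological replicates were separated, so p-values measure the spread between these libraries.

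Total counts ran from 20143111 to 36831801 per library, and 6164768 to 14206491 of them lay outside the 6 most abundant identifiers. The most abundant identifier alone took 36.8% to 49.3% of the counts, most in parental replicate 1 and E2 replicate 1. All 10 epithelial and mammary carcinoma markers were tested in the fits, and their summed level was 379 to 430 CPM (counts scaled to the normalized total of the library) in parental and 605 to 885 CPM in the clones. Of 10 leukocyte markers, 6 to 8 were at 0 in all libraries of a population, and the list summed to 0.14 to 1.24 CPM. The fibroblast list summed to 21.2 to 33.8 CPM in A and 3.47 to 12.2 CPM elsewhere, and Pdgfra, the only fibroblast marker tested, rose in A by 1.88 on the log2 scale (SE 0.21, adjusted p = 4.49e-05). The part of these markers in the results below was not tested.

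The respiratory chain genes lay lower in the clones than in parental as a group, by a small amount, and few single genes passed the test. Over the 54 tested genes the median log2 fold change against parental was -0.22 for both E1 and M, -0.24 for E2 and -0.28 for A. Over all 12712 genes tested the medians were -0.01, -0.01, 0.01 and 0.03 for the same clones. Their summed level was 740 ± 36.7 CPM in parental, 657 ± 19.6 in E1, 634 ± 42.3 in E2, 624 ± 13.6 in M and 617 ± 67.5 in A (SD, n = 3 each). A gene was called where edgeR's quasi-likelihood test gave a Benjamini-Hochberg adjusted p under 0.05. In E1, 4 of the 54 were lower and none higher, against 7.35% of all genes called lower, 7.77% called higher and 15.1% called in either direction. In E2, 6 were lower and none higher (8.8% of all genes lower, 9.14% higher, 17.9% in either direction). In A, 8 were lower and 1 was higher (14.9% lower, 15.1% higher, 30% in either direction). In M, 6 were lower and none higher (6.28% lower, 7.87% higher, 14.1% in either direction). Counting both directions together, the share of these genes called was near or below that of all genes in each comparison. By direction the split was uneven. All calls in E1, E2 and M were falls, as were all but 1 in A. The share of the 54 called lower was 11.1% in both M and E2, above the 6.28% and 8.8% of all genes. For E1 and A the share called lower was near that of all genes. Whether these shares differ from those of all genes was not tested. These 4 comparisons share the same 3 parental libraries. A fall in RNA per cell and fewer cells with the RNA cannot be told apart in bulk libraries.

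**Figure D1:**
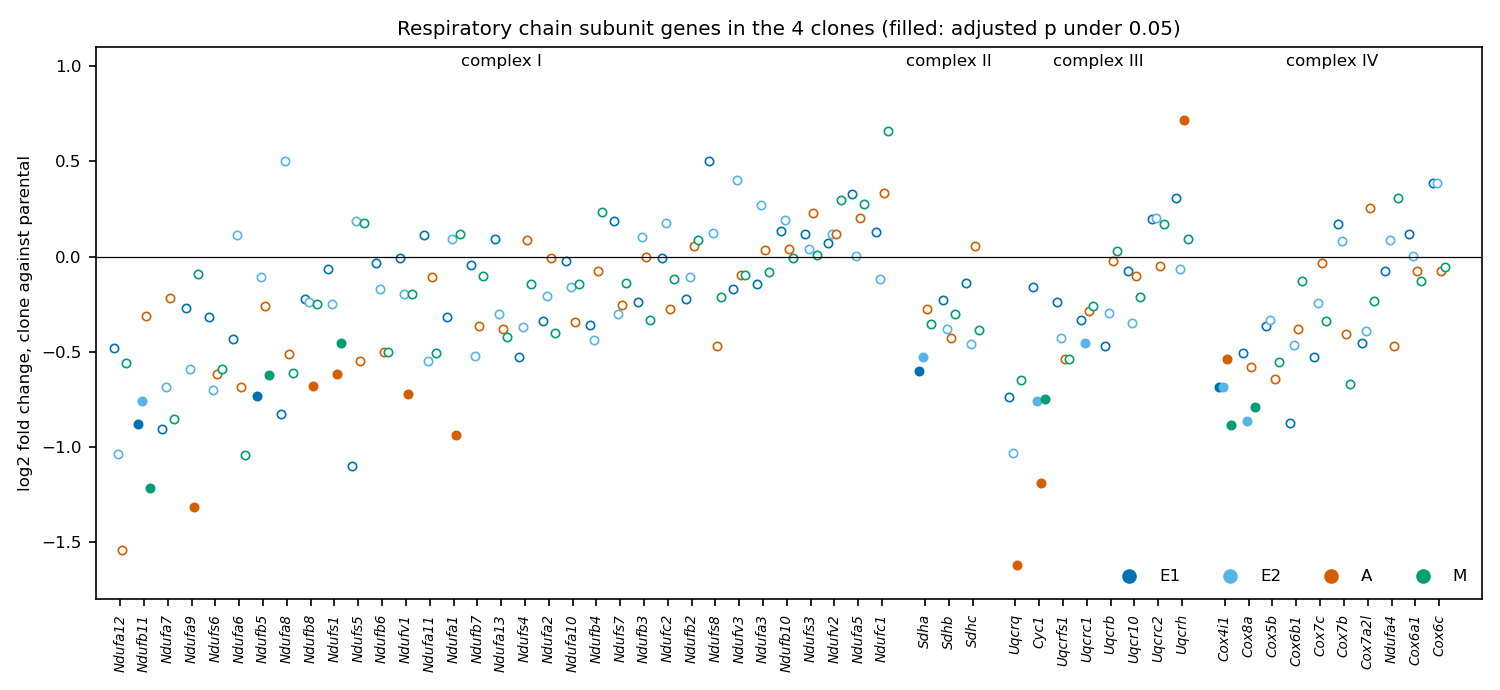
Log2 fold change of each of the 54 tested genes in each clone against parental (vertical axis, log2), ordered within its complex, with filled points for an adjusted p under 0.05. Most points lie below 0, the 24 filled points below it are spread over 13 genes, and the only filled point above 0 is Uqcrh in A.

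By gene, 13 were called lower in at least 1 clone (22.2% of all genes), 1 was called higher in at least 1 (21.7%), and 40 were called in none (57.5%). Cox4i1 was called lower in all 4 clones (1.74% of all genes). The fitted fold change lay below 0 in all 4 clones for 25 of the 54 genes (25.1% of all genes), and above 0 in all 4 for 3 (25.1%). Among the 5 populations, 14 of the 54 differed, or 25.9%, against 40.9% of all genes. The share was also lower among genes of like level: of the 26 with a mean between 3.59 and 15.2 CPM, 6 differed (23.1%), against 42.6% of the 3701 genes in that range. The median replicate SD on the log2 scale was 0.32 for these genes and 0.32 for all.

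The group's shift was uneven across the parental libraries. Relative to each gene's mean over all libraries, the median gene stood at 0.33 and 0.31 log2 units in parental replicates 1 and 2 and at 0.04 in replicate 3. The 12 clone libraries ran from -0.22 to 0.09, so parental replicate 3 lay within their range. Over all tested genes the library medians ran from 0.01 to 0.04. Without parental replicate 2 the median log2 fold change in E1 was -0.08.

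**Figure D2:**
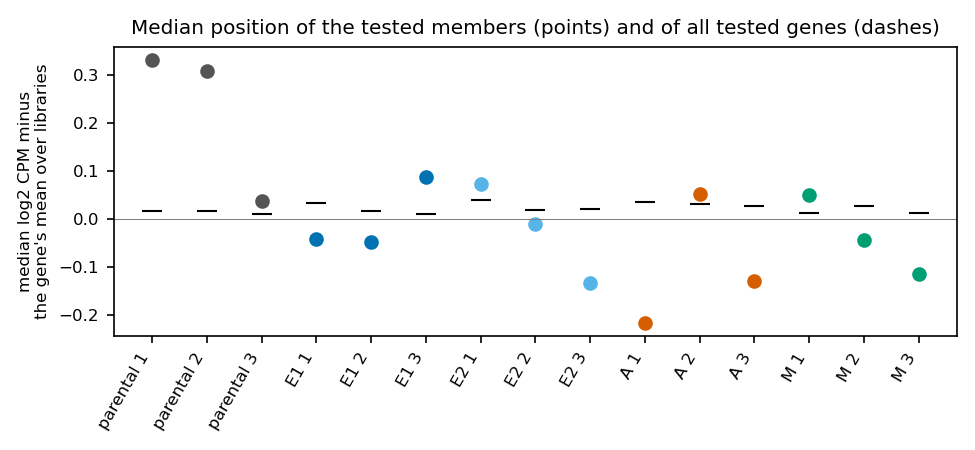
Median over the 54 tested genes of log2 CPM minus the gene's mean over all libraries (points, log2 units), by library, with the median over all tested genes as dashes. Parental replicates 1 and 2 stand at 0.33 and 0.31, and parental replicate 3, at 0.04, lies among the clone libraries.

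Levels are compared between genes per kilobase of mRNA. In complex I, Ndufb5, a membrane arm subunit, had the highest mean level over the 15 libraries, 24.9 CPM per kilobase, and Ndufa8 the lowest of the genes tested, 0.346. Sdhb, the iron-sulfur subunit, led complex II at 17.1 CPM per kilobase. Uqcrc2, a core protein, led complex III at 42.5, and Cox6c led complex IV at 51.8. Uqcr11, a small subunit of complex III, had 0 counts in all 15 libraries, which allows up to 0.0735 to 0.156 CPM per library at 3 counts. Of its mRNA, 38.4% was near-identical to another gene. Sdhd, a membrane anchor of complex II, had 0 counts in all 3 E2 libraries and at most 0.199 CPM elsewhere, although its partners Sdha, Sdhb and Sdhc were all tested. Bulk counts do not show whether these transcripts were absent or uncounted.

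**Figure D3:**
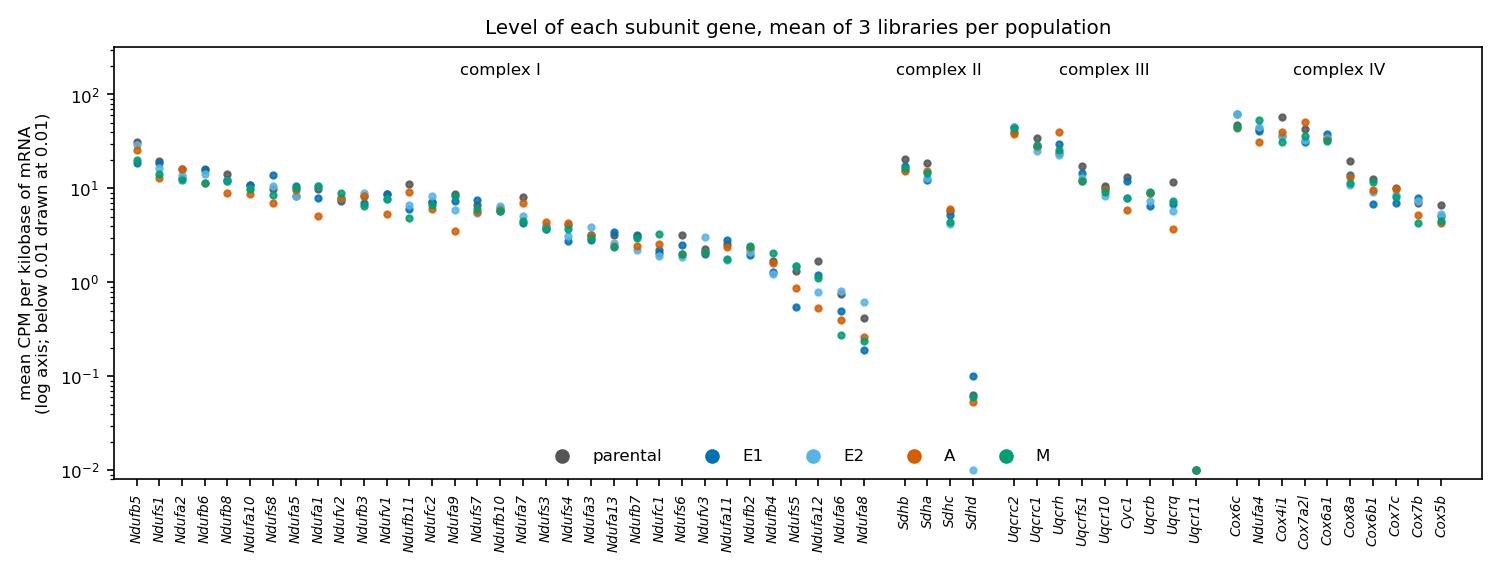
Mean CPM per kilobase of mRNA (log axis) of each of the 56 genes in the 5 populations, ordered within its complex, with values below 0.01 drawn at 0.01. The 5 populations lie close together for most genes, while levels differ widely between subunits of the same complex.

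In the matrix arm of complex I, which holds the NADH-oxidizing end, 3 of 15 genes fell in A (14.9% of all genes) and 1 in M (6.28%). None were called by edgeR in E1 or E2 (7.35% and 8.8% of all genes lower), where 2 and 1 had an unadjusted p under 0.05. Ndufa9, an accessory subunit at the junction of the arms, lies on chr6:126821863-126849144 (GRCm38, minus strand). It was counted at 11, 9.99 and 14.5 CPM in parental, 8.81, 9.66 and 11 in E1, 9.32, 6.11 and 8.11 in E2, 5.21, 5.19 and 3.75 in A, and 11.4, 9.80 and 12.1 in M. The A libraries were the lowest of all 15. It fell in A by 1.32 on the log2 scale (SE 0.22, adjusted p = 7.58e-05), and its exons overlap 1700018A23Rik on the other strand. Ndufs1, the large iron-sulfur subunit, was at 49.4, 50.7 and 54.1 CPM in parental, 44.2, 55.3 and 48.1 in E1, 44.7, 43.4 and 41.7 in E2, 30.5, 36.5 and 33.7 in A, and 34.5, 36.8 and 41.2 in M. Its A and M libraries lay below every parental and E1 library, and it fell by 0.61 in A (SE 0.08, adjusted p = 0.00152) and 0.45 in M (SE 0.09, adjusted p = 0.0306). The M call was lost under 6 of 23 alternatives, among them leaving out parental replicate 2 or 3 or M replicate 1 or 2. Exons of Ndufs1 overlap Eef1b2 on the other strand. Eef1b2 averaged 141 CPM and fell in all 4 clones, by 0.73 in E1, 0.91 in E2, 0.64 in M and 0.55 in A, and the strand setting of the counting is not given in the sources used here, so its part in Ndufs1 was not tested. Ndufv1, the subunit that binds NADH, was at 14.3, 15.1 and 10.8 CPM in parental, 13, 13.5 and 13.6 in E1, 13.3, 12.2 and 9.73 in E2, 7.37, 9.03 and 7.87 in A, and 11.6, 12.9 and 10.5 in M. Again the A libraries were the lowest, a fall of 0.72 (SE 0.17, adjusted p = 0.00628). Ndufs8, another iron-sulfur subunit, differed among the 5 populations (adjusted p = 0.0119) but was not called in any clone against parental. Its values were 8.40, 10.1 and 10.3 CPM in parental, 10.7, 15.8 and 14.5 in E1, 8.80, 13.1 and 9.45 in E2, 6.08, 7.83 and 6.86 in A, and 5.91, 8.97 and 9.94 in M. E1 lay above parental and A below it without overlap, with log2 fold changes of 0.50 (SE 0.19, adjusted p = 0.146) and -0.47 (SE 0.14, adjusted p = 0.13).

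In the membrane arm of complex I, which pumps protons, 2 of 18 genes fell in E1 (7.35% of all genes), 1 in E2 (8.8%), 2 in M (6.28%) and 2 in A (14.9%). Ndufb11, an accessory subunit encoded on chrX:20615326-20617619 (minus strand), had 9.61, 8.50 and 12.5 CPM in parental, 5.27, 4.88 and 6.40 in E1, 6.77, 5.87 and 5.47 in E2, 5.18, 11.3 and 8.24 in A, and 4.80, 4.34 and 3.98 in M. Every E1, E2 and M library lay below parental, while A spread across both ranges. Ndufb11 fell by 1.21 in M (SE 0.18, adjusted p = 0.00228), 0.88 in E1 (SE 0.20, adjusted p = 0.0222) and 0.76 in E2 (SE 0.19, adjusted p = 0.0437). The E2 call was lost under 8 of 23 alternatives (highest adjusted p = 0.209), among them leaving out parental replicate 1 or 3 or any E2 replicate. In E1 it no longer passed when parental replicate 3 or E1 replicate 1 or 2 was left out. Its exons overlap Rbm10 on the other strand, whose own log2 fold changes were -0.16 in M, 0.16 in E1 and 0.00 in E2. Ndufb5 was at 21.9, 17.9 and 18.5 CPM in parental, 11.5, 9.39 and 14 in E1, 18.6, 20.4 and 15 in E2, 13.4, 20.9 and 14.2 in A, and 11.9, 15 and 10.7 in M. It fell in E1 by 0.73 (SE 0.19, adjusted p = 0.0165) and in M by 0.62 (SE 0.17, adjusted p = 0.042), and E2 and A overlapped parental. Without parental replicate 1 neither call held, and the E1 call was also lost without E1 replicate 2 and the M call without parental replicate 2 or 3 or M replicate 1 or 3. Exons of Ndufb5 overlap Mrpl47 on the other strand, 20% of its bases are near-identical to that gene, and Mrpl47 averaged 3.15 CPM with log2 fold changes of 0.23 in E1 and -0.28 in M. Ndufb8 and Ndufa1, both accessory subunits, fell in A alone among the comparisons with parental. Ndufb8, at 19.5, 21.0 and 20.3 CPM in parental and 10.3, 13 and 14.5 in A, fell by 0.68 (SE 0.15, adjusted p = 0.0143), a call lost without A replicate 1. Ndufa1, at 2.79, 5.40 and 4.19 CPM in parental and 1.69, 2.74 and 1.94 in A, fell by 0.94 (SE 0.34, adjusted p = 0.0303), and no longer passed when parental replicate 2 or 3 or A replicate 1 or 3 was left out. Ndufb10 had the largest p of complex I among the 5 populations (adjusted p = 0.966), with means of 4.20 ± 1.23 CPM in parental, 4.59 ± 1.30 in E1, 4.81 ± 1.07 in E2, 4.17 ± 1.37 in M and 4.30 ± 0.70 in A (SD, n = 3 each).

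In complex II, the summed level was 89.3 ± 10.3 CPM in parental, 66.3 ± 4.74 in E1, 64.0 ± 4.50 in E2, 70.2 ± 4.07 in M and 74.2 ± 7.0 in A (SD, n = 3 each). No clone library reached the lowest parental sum of 80.9 CPM. Sdha, the flavoprotein that oxidizes succinate, carried most of the sum. It was at 67.6, 43.3 and 52.4 CPM in parental, 37.9, 31.9 and 37.8 in E1, 40.5, 33.7 and 39.1 in E2, 41.7, 44.1 and 48.9 in A, and 41.4, 44.7 and 41.3 in M. Parental replicate 1 was the highest library. Sdha fell by 0.60 in E1 (SE 0.20, adjusted p = 0.0104) and 0.53 in E2 (SE 0.20, adjusted p = 0.0201), and without parental replicate 1 the values were -0.43 (adjusted p = 0.0809) and -0.36 (adjusted p = 0.142). Sdhb was not called in any comparison (adjusted p = 0.27 among the 5 populations) and averaged 23.3 ± 2.01 CPM in parental, 19.9 ± 3.18 in E1, 17.9 ± 1.43 in E2, 18.9 ± 3.20 in M and 17.3 ± 3.27 in A (SD, n = 3 each).

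In complex III, 2 of 8 tested genes fell in E2 (8.8% of all genes), 2 in A (14.9%) and 1 in M (6.28%). None fell in E1 (7.35% of all genes, 1 of the 8 at an unadjusted p under 0.05), and 1 rose in A (15.1%). Cyc1, cytochrome c1, which hands electrons to cytochrome c, lies on chr15:76343513-76346260 (plus strand) and had the smallest p of the 54 genes among the 5 populations (adjusted p = 9.04e-05). It was counted at 18.9, 22.4 and 19.5 CPM in parental, 15.4, 17.3 and 21.8 in E1, 12.0, 13.1 and 10.8 in E2, 8.07, 9.88 and 8.64 in A, and 14.3, 9.34 and 12.6 in M. E1 reached into the parental range and the other 3 clones did not. Cyc1 fell by 1.19 in A (SE 0.11, adjusted p = 4.14e-05), 0.76 in E2 (SE 0.11, adjusted p = 0.00749) and 0.75 in M (SE 0.20, adjusted p = 0.00968), the last with adjusted p = 0.0655 without M replicate 2. No near-identical copy or opposite-strand gene was found for Cyc1. Uqcrq, a small subunit, was at 8.91, 5.28 and 3.43 CPM in parental, 3.99, 3.44 and 3.00 in E1, 4.84, 2.06 and 1.70 in E2, 1.73, 1.14 and 2.71 in A, and 4.98, 3.55 and 2.62 in M. The 3 parental libraries spread widely, yet all A libraries lay below them, and it fell in A by 1.62 (SE 0.52, adjusted p = 0.00331). Uqcrc1, a core protein, had 64.2, 58.7 and 48.9 CPM in parental and 45.2, 42.0 and 38.0 in E2, a fall of 0.46 (SE 0.14, adjusted p = 0.0343) that was lost under 6 of 23 alternatives, among them leaving out parental replicate 1 or 2 or E2 replicate 2 or 3. Uqcrh, the hinge protein at the cytochrome c1 face, was the 1 gene called higher: 8.68, 14.5 and 11 CPM in parental and 14.6, 23.8 and 17.8 in A, a rise of 0.72 (SE 0.29, adjusted p = 0.0391). The lowest A library and the highest parental library were nearly equal, and without A replicate 2 its log2 fold change was 0.50 (adjusted p = 0.207). Uqcrfs1, the Rieske iron-sulfur protein, lay below parental in all libraries of all 4 clones, as did Cox4i1 and Cox8a (3 of 54 genes, against 4.96% of all genes), but its log2 fold changes of -0.24 to -0.54 did not pass edgeR's test. DESeq2 called Uqcrfs1 in A, and the replicate block called it in A and M. Uqcrc2 averaged 74.8 ± 20.3 CPM in parental and 72.3 to 86.1 CPM in the clones, and Uqcr10 had the largest p of the complex (adjusted p = 0.89).

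In complex IV, whose catalytic core is mitochondrially encoded, 1 of 10 nuclear genes fell in E1 (7.35% of all genes), 2 in E2 (8.8%), 2 in M (6.28%) and 1 in A (14.9%). Cox4i1, the regulatory subunit that binds ATP, lies on chr8:120668225-120674209 (plus strand). It was counted at 45.6, 47.7 and 37.0 CPM in parental, 27.7, 26.8 and 26.5 in E1, 29.2, 26.1 and 25.8 in E2, 25.8, 35.0 and 28.9 in A, and 24.2, 23.8 and 22.4 in M. All 12 clone libraries lay below the lowest parental library. Cox4i1 fell by 0.89 in M (SE 0.12, adjusted p = 0.000257), 0.68 in E1 (SE 0.11, adjusted p = 0.00324), 0.68 in E2 (SE 0.13, adjusted p = 0.00272) and 0.54 in A (SE 0.17, adjusted p = 0.00898), the last with adjusted p = 0.0653 without A replicate 1. Cox4i1 shares 20.1% of its mRNA bases with Emc8, which overlaps it on the other strand, averaged 12.5 CPM and was not called in any clone (log2 fold changes of -0.08 to -0.54). Cox8a, a small subunit, was at 12.6, 9.99 and 9.92 CPM in parental, 9.41, 6.46 and 6.84 in E1, 5.52, 7.23 and 5.01 in E2, 7.04, 6.69 and 7.90 in A, and 5.64, 7.23 and 5.80 in M. It too lay lower in every clone library than in any parental one, and it fell by 0.86 in E2 (SE 0.19, adjusted p = 0.0111) and 0.79 in M (SE 0.16, adjusted p = 0.0227). Both calls were lost without parental replicate 1, the E2 call also without E2 replicate 3 and the M call without M replicate 1 or 3. In E1 and A its values were -0.51 (SE 0.20, adjusted p = 0.146) and -0.58 (SE 0.13, adjusted p = 0.0588).

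A further 3 complex IV genes differed among the populations without being called against parental. Cox7a2l, which takes part in joining complexes III and IV, was at 41.9, 58.3 and 41.0 CPM in parental, 36.0, 32.9 and 34.1 in E1, 30.3, 40.1 and 37.4 in E2, 49.4, 62.6 and 56.5 in A, and 45.9, 31.1 and 43.3 in M (adjusted p = 0.00542). It stood highest in A and lowest in E1 and E2. Ndufa4 was at 24.9, 18 and 16.3 CPM in parental, 18.3, 17.6 and 20.3 in E1, 19.6, 25.9 and 17.4 in E2, 13.8, 17 and 11.8 in A, and 20.6, 31.2 and 21.4 in M (adjusted p = 0.0374), with M above A. Cox6c was at 23.4, 29.2 and 32.5 CPM in parental, 36.7, 34.5 and 40.1 in E1, 38.3, 37.9 and 35.4 in E2, 24.9, 30.1 and 25.9 in A, and 30.2, 33.2 and 18.6 in M (adjusted p = 0.0473). All E1 and E2 libraries of Cox6c lay above the parental ones, with log2 fold changes of 0.38 (SE 0.15, adjusted p = 0.156) and 0.39 (SE 0.14, adjusted p = 0.139). Cox6a1 had the largest p of complex IV (adjusted p = 0.841) and averaged 19.8 ± 0.71 CPM in parental and 18.1 to 21.5 CPM in the clones.

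**Figure D4:**
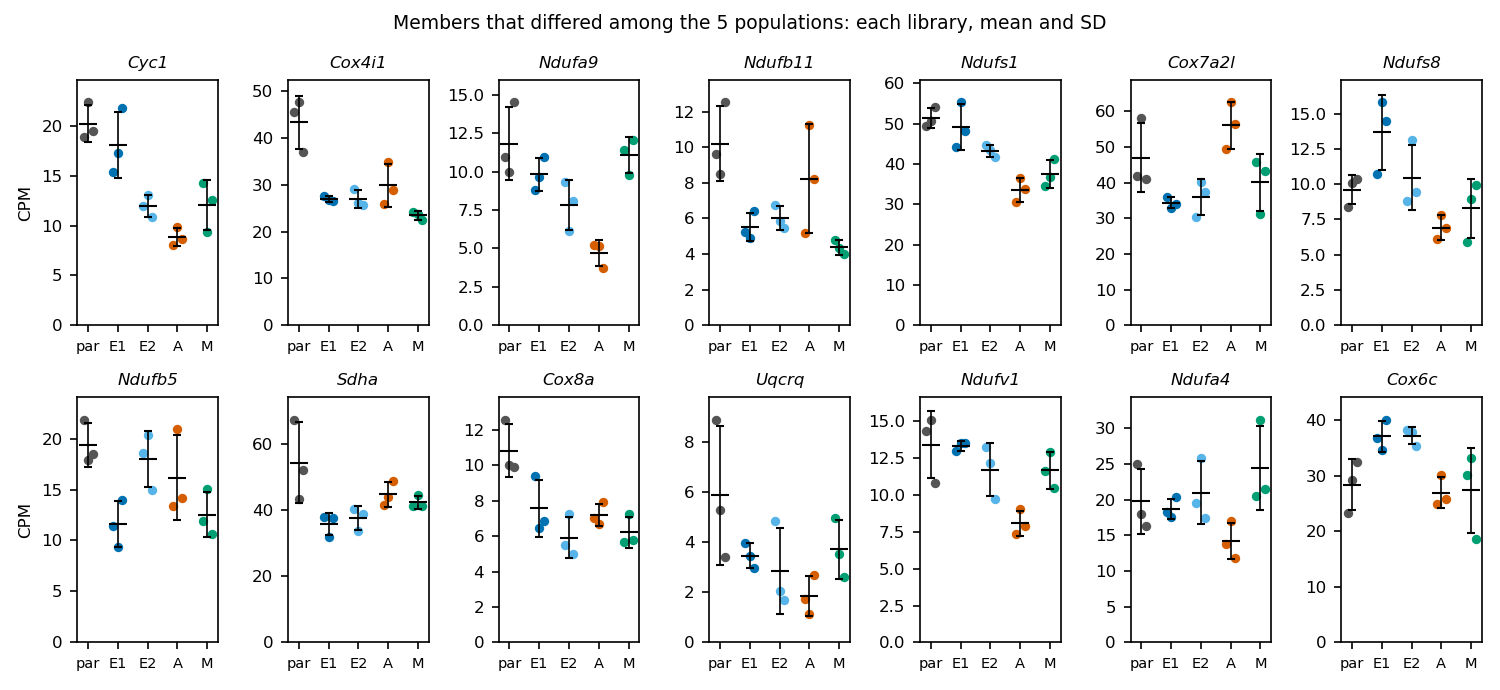
CPM (linear axes from 0) of the 14 genes that differed among the 5 populations, 1 panel per gene, with points for libraries and bars for the mean and SD of 3 (par, parental). Cox4i1 and Cox8a sit below parental in every clone, while Cyc1, Ndufa9, Ndufs1 and Ndufv1 are lowest in A.

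All calls between clones involved A. Against E1, A had 5 genes lower and 1 higher (14.6% of all genes lower, 15% higher, 29.6% in either direction): Ndufa9 by -1.05 on the log2 scale (SE 0.18, adjusted p = 0.000884), Cyc1 by -1.03 (SE 0.17, adjusted p = 0.000218), Ndufs8 by -0.97 (SE 0.20, adjusted p = 0.00202) and Ndufv1 by -0.72 (SE 0.09, adjusted p = 0.00684) were lower, and Cox7a2l was higher by 0.71 (SE 0.11, adjusted p = 0.00226). Ndufs1 was the other lower gene. Against E2, A had Ndufa1 and Ndufa9 lower and Uqcrh and Cox7a2l higher (11% of all genes lower, 11.4% higher, 22.4% in either direction). Against A, M had 3 genes higher, led by Ndufa9 (1.22, SE 0.18, adjusted p = 0.000422), and 2 lower, led by Ndufb11 (-0.90, SE 0.33, adjusted p = 0.0163), against 9.2% of all genes higher, 8.55% lower and 17.7% in either direction. No respiratory chain gene was called by edgeR between E2 and E1 (0.236% of all genes), M and E1 (3.89%) or M and E2 (3.5%), where 2, 6 and 3 of the 54 had an unadjusted p under 0.05, and DESeq2 also called 0 in each. The median log2 fold change over the 54 genes was -0.05 for E2 against E1, -0.08 for M against E1 and 0.00 for M against E2, with single genes between -1.15 and 1.33. Leaving out 1 library turned the sign of the first (-0.10 to 0.03) and the last (-0.07 to 0.08).

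Promoter sequences from RefSeq (GRCm38.p6) were found for 47 of the 56 genes, in windows of 250 bases before to 50 after the annotated start. Of the factors known to bind such promoters, NRF1 and the ETS factor GABPA regulate many respiratory chain genes. The core NRF1 letters GCATGCG, on either strand, were in 7 of the 47 (14.9%), against 7.4% of promoters of tested genes and 4.0% of all promoters. The ETS letters CCGGAAG were in 11 (23.4%), against 20.7% and 9.9%, and the YY1 letters AGATGGC in 7 (14.9%), against 8.5% and 7.3%. The Sp1 letters GGGCGG were in 18 (38.3%), against 69.4% and 38.2%. All 7 genes with the YY1 letters (100%) held a match starting after the start of transcription, while 42.7% of tested genes with those letters did. The windows below, 180 bases before to 20 after the start, are shown for a gene low in every clone library (Cox8a, chr19:7217597-7217796, minus strand), the gene called higher (Uqcrh, chr4:116075051-116075250, minus strand) and 2 genes called in no comparison that hold both motifs (Cox6a1, chr5:115348939-115349138, minus strand, and Sdhb, chr4:140961091-140961290, plus strand). Capitals mark the NRF1 core and ETS letters, read on either strand, and the 2 NRF1 matches of Cox6a1 overlap.
Cox8a: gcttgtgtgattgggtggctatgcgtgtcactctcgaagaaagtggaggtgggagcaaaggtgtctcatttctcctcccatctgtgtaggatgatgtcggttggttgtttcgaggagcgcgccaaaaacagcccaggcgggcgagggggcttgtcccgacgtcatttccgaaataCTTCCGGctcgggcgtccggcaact
Uqcrh: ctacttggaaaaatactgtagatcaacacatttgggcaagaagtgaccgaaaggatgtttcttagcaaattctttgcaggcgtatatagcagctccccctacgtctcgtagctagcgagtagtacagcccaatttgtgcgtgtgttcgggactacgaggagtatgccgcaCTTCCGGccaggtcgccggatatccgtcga
Cox6a1: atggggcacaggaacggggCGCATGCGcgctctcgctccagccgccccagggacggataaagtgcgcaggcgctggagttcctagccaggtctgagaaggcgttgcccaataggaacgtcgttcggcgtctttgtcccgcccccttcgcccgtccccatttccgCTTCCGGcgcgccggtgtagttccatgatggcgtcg
Sdhb: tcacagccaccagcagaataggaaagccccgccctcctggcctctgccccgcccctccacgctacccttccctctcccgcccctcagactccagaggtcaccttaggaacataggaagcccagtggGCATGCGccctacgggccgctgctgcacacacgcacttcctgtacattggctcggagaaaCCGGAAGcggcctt
In the printed bases Cox8a and Uqcrh each hold 1 ETS match close to the start, and Cox8a holds a second one starting at +33, outside them. Neither holds the NRF1 core in its full window. Of the genes called against parental, Uqcrc1 holds that core, starting at +32. A match of letters is a description of the sequence and not a measured binding site.

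The other nuclear subunits of the same complexes were few. They were listed together with the cytochrome c genes Cycs and Cyct, which are not subunits of these complexes, and 8 of 17 listed were tested. Of these, 2 fell in E1 (7.35% of all genes), 1 in E2 (8.8%), 1 in M (6.28%) and 2 in A (14.9%). None rose. Ndufb9, a membrane arm subunit of complex I, had larger changes in A and M than any of the 54 genes above. It was at 34.9, 51.4 and 39.4 CPM in parental, 22.9, 26.6 and 22.7 in E1, 22.2, 23.0 and 20.9 in E2, 5.68, 6.95 and 6.64 in A, and 7.89, 4.66 and 4.89 in M. The populations fell into 3 levels without overlap, parental highest, E1 and E2 between, and A and M lowest. Ndufb9 fell by 2.69 in A (SE 0.19, adjusted p = 2.35e-10) and fell by 2.85 in M (SE 0.29, adjusted p = 3.03e-10), and it fell by 0.80 in E1 (SE 0.18, adjusted p = 0.00519) and 0.93 in E2 (SE 0.17, adjusted p = 0.00121). Cycs, cytochrome c, fell in A by 1.72 (SE 0.26, adjusted p = 9.86e-07). Cox5a fell in E1 by 0.62 (SE 0.20, adjusted p = 0.0355). Cox7a2, at 0.267 CPM in parental, was not called.

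The 13 mitochondrially encoded protein genes, partners of these subunits except mt-Atp6 and mt-Atp8 of ATP synthase, moved apart from the nuclear genes in A. Their median change on the log2 scale was -0.32 in E1, -0.29 in E2 and -0.25 in M but 0.38 in A, where the nuclear median was -0.28. Against parental, mt-Co1 and mt-Cytb fell in E1, E2 and M (7.35%, 8.8% and 6.28% of all genes). In A, mt-Nd1, mt-Nd2 and mt-Nd6 rose (15.1% of all genes). mt-Co1, the catalytic subunit of complex IV, fell by 0.94 in E1 (SE 0.13, adjusted p = 8.61e-05), 0.90 in E2 (SE 0.07, adjusted p = 9.77e-05) and 0.74 in M (SE 0.14, adjusted p = 0.000895), and its value in A was -0.38 (SE 0.07, adjusted p = 0.0525). mt-Cytb, of complex III, fell by 0.57 in E1 (SE 0.18, adjusted p = 0.00847), 0.53 in E2 (SE 0.11, adjusted p = 0.0112) and 0.50 in M (SE 0.09, adjusted p = 0.0214). mt-Nd1, of complex I, rose in A by 0.60 (SE 0.14, adjusted p = 0.00817), mt-Nd2 by 0.46 (SE 0.12, adjusted p = 0.0298) and mt-Nd6 by 0.60 (SE 0.27, adjusted p = 0.0333). mt-Nd3, mt-Nd4, mt-Nd4l, mt-Nd5, mt-Co2, mt-Co3, mt-Atp6 and mt-Atp8 were not called against parental, with log2 fold changes in A of -0.07 to 0.60. Between clones, A was called higher than E1 in 10 of the 13 (15% of all genes) and than E2 in 8 (11.4%). M was called lower than A in 8 (8.55%). The 13 genes summed to 5257 to 6354 CPM in parental and 6102 to 6998 in A, so these ranges overlapped. The E1 libraries ran from 3489 to 5234 CPM, the last in replicate 3. Genes of both strands lie close together in this genome, and without a stated strand setting their reads cannot be told apart.

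Other genes of mitochondrial energy metabolism gave the following counts against parental. Of all genes, 7.35% were called lower in E1, 8.8% in E2, 6.28% in M and 14.9% in A. Of 18 ATP synthase genes, none were called in E1 (2 at an unadjusted p under 0.05), 3 fell in E2, 3 in M and 4 in A. Atp5f1b, the catalytic beta subunit, fell by 0.96 in A (SE 0.19, adjusted p = 1.63e-05), Atp5f1a, the alpha subunit, by 0.74 in A (SE 0.18, adjusted p = 0.000971), Atp5f1c, the gamma subunit, by 0.56 in E2 (SE 0.21, adjusted p = 0.012), and Atp5mc1, a ring subunit, by 0.86 in A (SE 0.17, adjusted p = 0.0167). Of 20 genes of the tricarboxylic acid cycle and pyruvate dehydrogenase, 1 fell in E1, 4 in E2, 3 in M and 7 in A. Idh2, mitochondrial isocitrate dehydrogenase, rose in all 4 clones, by 0.59 in E1, 0.54 in E2, 0.72 in M and 0.88 in A (adjusted p = 0.0226, 0.0336, 0.00613 and 0.0004). Idh3b and Suclg2, enzymes of the same cycle, fell by 0.87 (SE 0.17) and 0.81 (SE 0.26) in A, and Pdhb, of pyruvate dehydrogenase, by 0.91 in E2 (SE 0.24, adjusted p = 0.000398). Of 13 ubiquinone synthesis genes, 2 fell in E1, 1 in E2, 2 in M and 1 in A. Coq9 fell in all 4, by 1.62, 1.54, 1.63 and 1.02 in E1, E2, A and M, and Coq8a fell in E1 and M, from 1.41 CPM in parental.

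**Figure D5:**
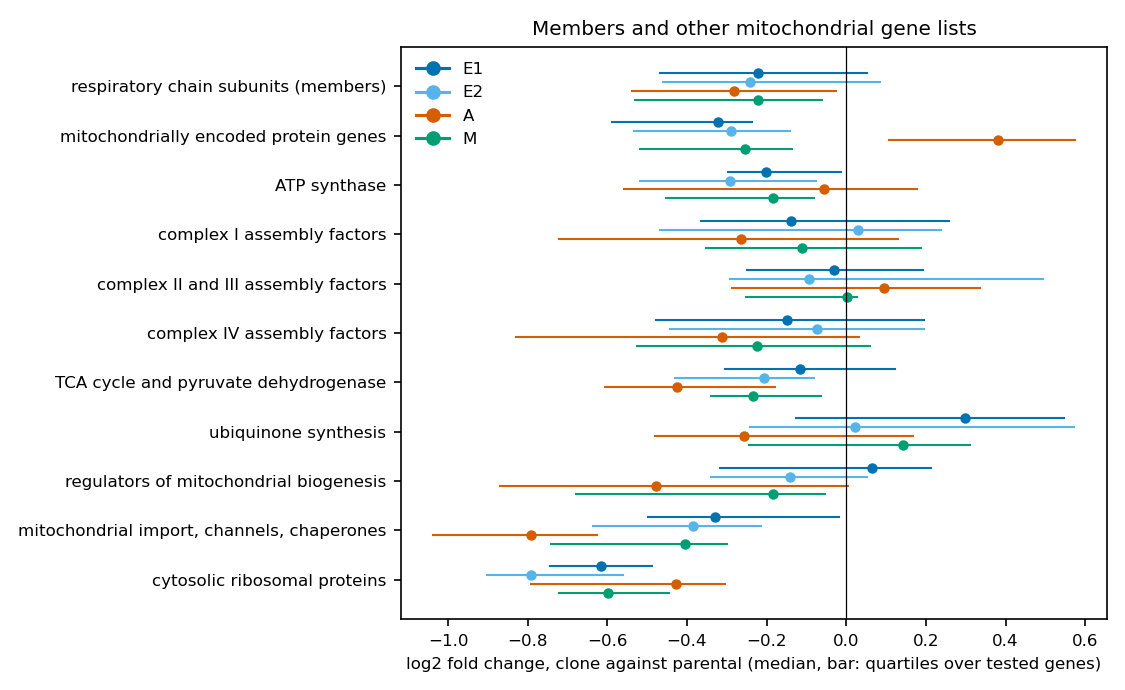
Median (points) and quartiles (bars) of the log2 fold change against parental over the tested genes of each list, by clone. The nuclear respiratory chain genes have medians of -0.22 to -0.28 in all 4 clones, and the mitochondrially encoded genes stand at 0.38 in A.

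The counts for assembly factors and regulators are read against these shares of all genes. Called lower were 14.9% in A, 8.8% in E2, 7.35% in E1 and 6.28% in M. Called higher in A were 15.1%. Called in either direction were 30% in A and 14.1% to 17.9% in the other clones. Of 19 complex I assembly factors, 4 fell in A, 1 in E2 and none in E1 or M (4 and 3 at an unadjusted p under 0.05). These were Tmem186 by 1.43 (SE 0.55), Ndufaf4 by 1.22 (SE 0.37), Ecsit by 1.12 (SE 0.23) and Tmem70 by 0.91 (SE 0.16) in A. Of 23 complex IV assembly factors, 7 fell and 1 rose in A and none were called in E1, E2 or M (2, 1 and 1 at an unadjusted p under 0.05). Cox10, an enzyme of heme A synthesis, fell in A by 1.65 (SE 0.26, adjusted p = 0.00023). Slirp, Cox18 and Sco1 fell in A by 1.35, 1.27 and 0.97. Of 10 complex II and III assembly factors, 1 was called, Ttc19 in E2, lower by 0.62 (SE 0.08, adjusted p = 0.0113). Of 19 regulators of mitochondrial biogenesis, 1 fell in E1, 1 in E2, 2 in M and 6 in A. Myc, a broad transcription factor that also raises mitochondrial genes, fell by 2.36 in A (SE 0.17, adjusted p = 2.02e-11), 1.03 in M (SE 0.16, adjusted p = 1.68e-05) and 0.57 in E2 (SE 0.16, adjusted p = 0.0071). Pprc1 fell by 0.92 and Tfb1m by 1.01 in A. Ppargc1a, which encodes the coactivator PGC-1alpha, was low, at 0.64 CPM in parental, and fell in E1 by 2.89 (SE 1.23, adjusted p = 0.0415). Of 16 genes of mitochondrial import, channels and chaperones, 14 fell in A, 5 in M, 4 in E2 and 2 in E1, with a median of -0.79 in A. Vdac2, an outer membrane channel, fell in all 4 clones, most in E2 by 1.33 (SE 0.11, adjusted p = 4.04e-07), and the import proteins Timm23 and Tomm22 fell by 2.24 and 1.20 and the protease Lonp1 by 1.35 in A.

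Outside mitochondria, 36 cytosolic ribosomal protein genes had 21 lower in E1 (7.35% of all genes), 26 in E2 (8.8%), 17 in M (6.28%) and 14 in A (14.9%). None were higher. Their median log2 fold change was lowest in E2 (-0.79) and highest in A (-0.43). That of the respiratory chain genes was lowest in A in the main fit, but its order among the clones was not settled. Leaving out 1 library moved it between -0.36 and -0.22 in A, -0.33 and -0.19 in M, and -0.32 and -0.20 in E2. Rps24 fell by 1.56 in E2 (SE 0.10, adjusted p = 6.56e-08), and Rpl13, Rps16 and Rpl27 by 1.40, 1.20 and 1.83 in E2. These genes have many near-identical copies, so their values are uncertain, and their part in the respiratory chain result was not tested. Of the 56 respiratory chain genes themselves, 19 had at least 1 other gene with a transcript of at least 98% identity over 100 bases. Some of these matches were genes overlapping at the same locus, such as Emc8 for Cox4i1 and Rbm10 for Ndufb11, and not separate copies. Only Ndufs3 and Uqcrb had at least 50% of their bases in such matches, and neither was called. Exons of 16 overlapped a gene on the other strand, and some of these are also among the 19.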

How the data were processed

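The authors deposited raw counts per gene for each library. Reads were aligned with HISAT2 and counted with featureCounts, per the submitters' processing notes, which also name DESeq2 and the builds GRCm38 and mm10. Versions and the strand setting are not given in the sources used here. The deposited normalized tables were not used here.

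Identifiers were named with RefSeq (25275 of 27179) and GENCODE M21 (18), and 1886 were left unnamed. Counts were fitted with edgeR 4.0.16 (R 4.3.3). filterByExpr (minimum count 10, minimum total 15, by population) kept 12712 genes, TMM factors were 0.847 to 1.11, and a robust quasi-likelihood fit had the population as its only term (biological coefficient of variation 0.255). Calls used an adjusted p under 0.05 within each comparison, over all genes tested. Fold changes used a prior count of 2, and SE came from the SD of log2 CPM in both populations (n = 3 each). Lengths were the median of coding transcripts. The fit was also run on simulated counts with the same dispersion for every gene and independent libraries. That setting is simpler than these data, and no result here rests on it.

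Members and lists were chosen with earlier results of these data known. Named genes were those called among the 5 populations, those called in a clone, up to 4 per direction between clones and per list, the highest and the least changed of each complex, and Ndufb9, Cox5a, Cox7a2 and the mitochondrial genes whatever their values. A further gene of that rule is not reported here. Alternatives were RLE factors, no filter, DESeq2 1.42.0, a replicate block, the top 6 genes removed, a composition covariate, 2 libraries left out, pairwise fits and each library left out. Errors cover replicate spread and counting only, because reads carry no molecular identifiers and need not be independent.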

Additional observations from a re-analysis of the deposited data

Results flagged for a closer look

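The following differences between clones are differences between 2 clones' changes against the same parental libraries, each tested directly with edgeR's quasi-likelihood test (log2 scale, Benjamini-Hochberg adjusted p, n = 3 each). No explanation of them was tested. A against E1 differed in Ndufa9 (-1.05, adjusted p = 0.000884), Cyc1 (-1.03, adjusted p = 0.000218), Ndufs8 (-0.97, adjusted p = 0.00202), Ndufv1 (-0.72, adjusted p = 0.00684), Ndufs1 (-0.55, adjusted p = 0.00407) and Cox7a2l (0.71, adjusted p = 0.00226), and these 6 calls held under all 23 alternatives.

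A against E2 differed in Ndufa1 (-1.03, adjusted p = 0.0236), Ndufa9 (-0.72, adjusted p = 0.0228), Uqcrh (0.78, adjusted p = 0.0319) and Cox7a2l (0.64, adjusted p = 0.00685). The Uqcrh libraries of A and E2 overlapped, and its call was lost under 6 of the 23 alternatives, those of Ndufa1 and Ndufa9 under 4 each. M against A differed in Ndufa9 (1.22, adjusted p = 0.000422), Ndufa1 (1.06, adjusted p = 0.0239), Ndufa4 (0.78, adjusted p = 0.00841), Ndufb11 (-0.90, adjusted p = 0.0163) and Cox7a2l (-0.49, adjusted p = 0.0464). The last was lost under 13 of the 23 alternatives, Ndufa1 under 4, and Ndufa4 and Ndufb11 under 2 each, while Ndufa9 held under all.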

How the results depend on the processing

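Of 25 calls against parental, 10 held under all 23 alternatives: Cox4i1 in E1, E2 and M, Cyc1 in E2 and A, Ndufs1, Uqcrq, Ndufv1 and Ndufa9 in A, and Ndufb11 in M. Of 15 calls between clones, 8 held, and none of these 40 calls reversed in direction. Without parental replicate 1 and E2 replicate 1 together, E2 against parental had 2 genes called in place of 6. With a replicate block M against E1 had 2 called in place of 0 and A against E2 had 8 in place of 4, and DESeq2 gave 7 for A against E2. The replicate numbers were not taken as pairs in the main fit. Same-numbered libraries of different populations correlated at -0.06 to 0.21 in their deviations (median 0.05), with 4 of 30 pairs over 0.1. Libraries with different numbers correlated at -0.18 to 0.06 (median -0.03), with 0 of 60 pairs over 0.1. Of 15 libraries, 13 correlated best with their own number, so the main p-values leave out a structure shared by replicate number. With the block, 45.1% of all genes differed among the 5 populations, against 40.9% without it. Leaving out each library in turn gave 1 to 6 genes called in E1 (1 without E1 replicate 2, 2 without parental replicate 1), 2 to 7 in E2 (2 without parental replicate 1, 3 without E2 replicate 2 or 3), 6 to 10 in A, 4 to 6 in M, 0 to 1 for M against E1 and M against E2 (1 without M replicate 2), 1 to 8 for A against E2 (1 without A replicate 3, 8 without parental replicate 1), and 2 to 5 for M against A (2 without A replicate 3, 3 without A replicate 2 or M replicate 3). The medians, whose alternatives were chosen after seeing the data, ran from -0.28 to -0.080 in E1 (the last without parental replicate 2), -0.18 to -0.023 for M against E1 and -0.023 to 0.17 for M against A. For A against E2 they ran from -0.15 to 0.04. The median level of the tested genes was 6.02 CPM, and the smallest change called against parental was a fall of 0.45 (Ndufs1 in M), with 3 libraries per group.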
